A study of Rattus norvegicus with 6 samples.

Results

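The glycine receptor, transporter and gephyrin genes described here are 7 of the 38445 genes counted in the amygdala RNA-seq libraries, namely 4 glycine receptor subunits (Glra1, Glra2, Glra3 and Glrb), 2 plasma membrane glycine transporters (Slc6a5 and Slc6a9) and the scaffold gephyrin (Gphn). They were chosen by rat gene symbol, matched to the NCBI gene identifiers of the count files, with no cutoff on a measured value, although earlier results of these data were known when the set was drawn up. All 7 of 7 were found, and 7 of 7 were expressed highly enough to be tested. The tissue was the amygdala of adult male Sprague Dawley wild-type rats injected intraperitoneally with saline (control group) or with ethanol at 1 g/kg (ethanol group) and killed 1 h later. Each group comprised 6 rats, whose RNA was pooled by 2 into 3 libraries, so n is 3 per group, a library averages 2 animals, and the p-values measure the spread between such pools. A pooled dissection of the whole amygdala cannot tell fewer cells of a type from less RNA per cell. The design asks whether the RNA level of these genes differed 1 h after a low dose of ethanol.

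Glycine receptors are chloride channels built from 5 subunits, in which the alpha subunits carry most of the ligand binding site and the beta subunit binds gephyrin, which holds the channel at the synapse. They are blocked by strychnine, and ethanol at intoxicating concentrations enhances their glycine current. Gephyrin also anchors GABA-A receptors and, in all tissues, catalyzes the last steps of molybdenum cofactor synthesis. The transporter GlyT1, encoded by Slc6a9, clears glycine mainly into glia, while GlyT2, encoded by Slc6a5, refills the terminals of glycinergic neurons, which lie mostly in the brainstem and spinal cord.

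The upstream sequences of the set differ in base composition. RefSeq promoter sequences (build GRCr8) were matched for 6 of the 7 genes, all but Glra1, and the 250 bases before the annotated start were read. The share of G and C was 72.4% for Gphn, 61.2% for Glrb, 58.4% for Slc6a9, 56.4% for Glra3 and 52.4% for both Glra2 and Slc6a5, beside a median of 52.0% over 27457 promoters. Gphn held 32 CpG sites, as many as its composition predicts (observed over expected 1.04), whereas Glra3 held 4 (0.211). The GC box GGGCGG occurred, on either strand, in all of these windows but that of Slc6a5 and in 32.4% of all promoters. Also on either strand, the core ACGTG of the hypoxia response element was present in Slc6a5 only and in 16.9% of all promoters. The letters TATAAA of the TATA box were found, by the same search, in Glra2 only and in 13.1% of all promoters. In Glra2 they lie on the opposite strand and are printed below as TTTATA. A match is a description of the letters and not a known binding site. The windows of Gphn, of Glra2, the most abundant alpha subunit here, and of Slc6a5 are shown 5′ to 3′ with the matches in capitals, to set the CpG-rich upstream region beside the others. They are at chr6:102687403-102687652 (plus strand), chrX:32651937-32652186 (plus strand) and chr1:108781303-108781552 (plus strand) of GRCr8. The Glra2 gene model used for counting lies on the minus strand of the older build Rnor_6.0. Whether the Glra2 window lies upstream of that model was not tested.
Gphn: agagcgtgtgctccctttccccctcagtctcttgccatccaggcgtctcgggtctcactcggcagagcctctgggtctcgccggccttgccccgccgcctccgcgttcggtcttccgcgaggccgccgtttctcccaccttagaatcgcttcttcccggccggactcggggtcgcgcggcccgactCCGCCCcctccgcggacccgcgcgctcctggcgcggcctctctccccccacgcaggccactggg
Glra2: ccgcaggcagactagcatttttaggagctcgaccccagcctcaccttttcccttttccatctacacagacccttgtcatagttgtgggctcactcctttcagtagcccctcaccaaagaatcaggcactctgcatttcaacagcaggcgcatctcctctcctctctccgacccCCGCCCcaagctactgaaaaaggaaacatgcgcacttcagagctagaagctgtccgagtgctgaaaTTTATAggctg
Slc6a5: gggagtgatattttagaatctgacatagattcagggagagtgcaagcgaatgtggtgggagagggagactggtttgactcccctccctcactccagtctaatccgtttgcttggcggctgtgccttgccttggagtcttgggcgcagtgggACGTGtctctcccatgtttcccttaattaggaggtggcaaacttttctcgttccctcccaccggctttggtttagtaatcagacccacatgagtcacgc

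None of the 7 genes passed the test of a difference between ethanol and control. By the quasi-likelihood test of edgeR, adjusted by Benjamini-Hochberg over 18141 genes, 0 of 7 had an adjusted p below the study's threshold of 0.2, against 0% of all genes tested. The study itself reported genes that passed this threshold in its own analysis of the RNA-seq data. At an unadjusted p below 0.05 there were also 0 of 7, against 4.15% of all genes tested (752 genes). Groups that did not overlap on CPM, the counts relative to all assigned reads of a library scaled by TMM, were found for 0 of 7 genes, against 8.85% of all genes. DESeq2, limma-voom and edgeR's likelihood ratio test likewise gave an adjusted p below 0.2 for 0 of 7, and for 81, 0 and 77 of all genes. Of the genes, 4 had a log2 fold change (ethanol minus control) above 0 and 3 below 0, with a median of 0.015, beside a median of 0.0064 over all genes tested. The largest difference was that of Slc6a5, at -0.26, and the smallest that of Glra3, at -0.0055.

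**Figure D1:**
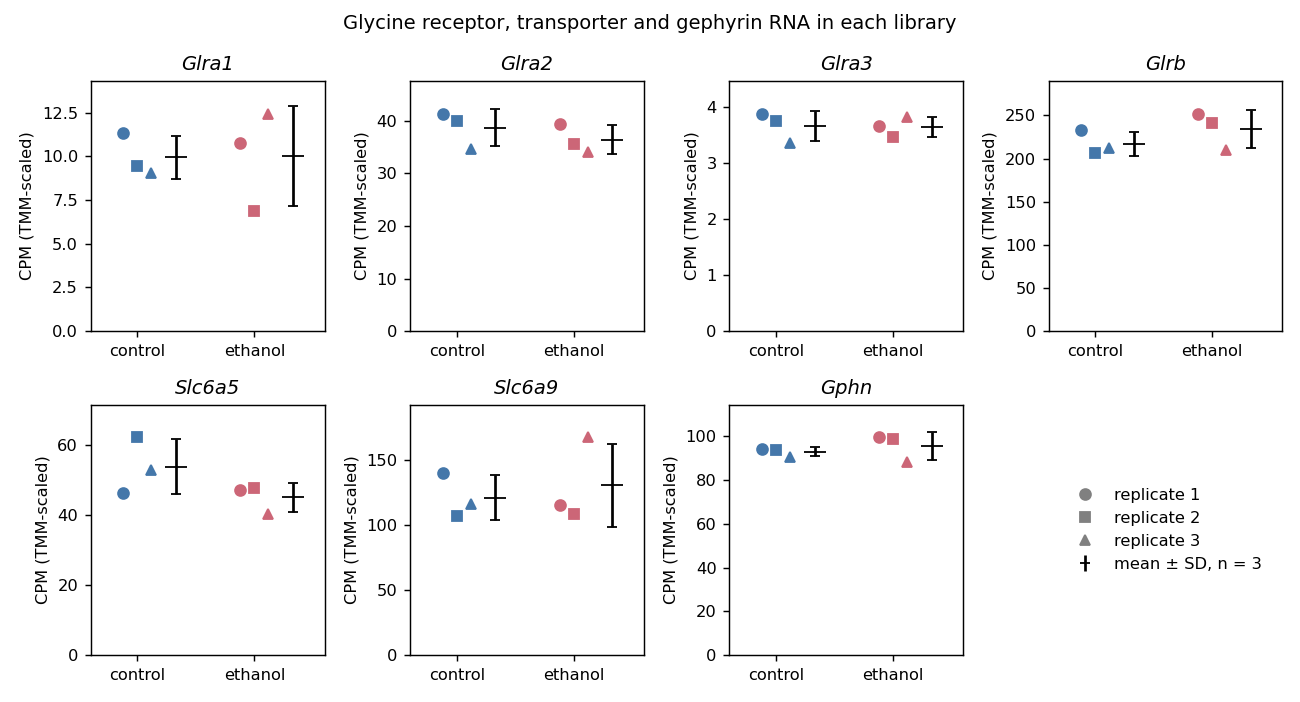
TMM-scaled CPM (y axis, from 0) of each of the 7 genes in the 3 control (blue) and 3 ethanol (red) libraries, with the symbol giving the replicate number and the black bar the mean ± SD of a group (n = 3). The groups overlap in every panel, and ethanol replicate 3 lies highest for Slc6a9 (167 CPM) and lowest for Slc6a5 (40.4 CPM).

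Assigned reads per library ranged from 62576504 to 70755739, at which 3 counts correspond to 0.0424 to 0.0479 CPM. Every one of the 7 genes had at least 213 counts in each library. Markers of the cell types of the amygdala were present. All 10 of 10 GABA neuron markers, 10 of 10 glutamatergic neuron markers and 14 of 14 central amygdala and striatum markers passed the expression filter. Markers of neighboring tissue and glia varied between libraries. The summed CPM of 12 choroid plexus markers lay between 534 and 1157 in controls. In ethanol replicates 1, 2 and 3 it was 16.6, 18.1 and 497. Of 11 tested markers, 6 were lower at an unadjusted p below 0.05 (edgeR), a level that 4.15% of all genes passed in either direction. For ependyma and motile cilia, 9 of 10 markers were lower after ethanol by the same measure. The sum of the 10 ran from 121 to 172 CPM in controls and from 93.4 to 105 CPM after ethanol. In each of these lists 0 markers had an adjusted p below 0.2 (edgeR). The sum of 12 thalamus and hypothalamus markers ran from 39.9 to 152 CPM in controls and from 42.6 to 376 CPM after ethanol. The sum of 10 oligodendrocyte markers ran from 3874 to 8906 CPM in controls and from 4717 to 10320 CPM after ethanol.

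Glrb encodes the beta subunit, which all synaptic glycine receptors share. The gene (NCBI 25456) occupies chromosome 2, positions 179768040 to 179842612 of build Rnor_6.0 (used for all gene positions here), on the minus strand, in 10 exonic blocks that share no base with another gene. It was measured at 233, 207 and 212 CPM in control replicates 1, 2 and 3 and at 252, 242 and 210 CPM in ethanol replicates 1, 2 and 3. Ethanol replicates 1 and 2 lay above every control, while ethanol replicate 3 lay among the controls. The means were 217 ± 13.9 CPM for control and 234 ± 22.1 CPM for ethanol (SD, n = 3 each). The log2 fold change was 0.11 (standard error 0.09, 95% interval -0.09 to 0.31, adjusted p = 1.0, edgeR). As a ratio to the control level, the interval ran from 0.937-fold to 1.24-fold. When ethanol replicate 3 was left out, Glrb had a log2 fold change of 0.18 and its unadjusted p from the same edgeR test 0.0331, with an adjusted p of 0.529; in that setting 8.87% of all genes tested had an unadjusted p below 0.05.

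Glra2 encodes the alpha subunit typical of fetal neurons, which persists in parts of the adult forebrain. It is the only X-linked gene of the 7 (NCBI 24397, chromosome X, 30612894 to 30832078, minus strand, 11 exonic blocks). Control replicates held 41.3, 40.0 and 34.6 CPM and ethanol replicates 39.4, 35.6 and 34.0 CPM. Replicate 3 was lowest in both groups, and the ranges overlapped over most of their length. Group levels were 38.6 ± 3.53 CPM and 36.4 ± 2.76 CPM (SD, n = 3 each). The log2 fold change was -0.09 (standard error 0.09, 95% interval -0.29 to 0.12, adjusted p = 1.0 from the same edgeR test).

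Glra3 encodes an alpha subunit known from the spinal dorsal horn, the retina and forebrain regions. Its gene (NCBI 114516, chromosome 16, 37676959 to 37908221, minus strand) was the least counted of the set. Control replicates gave 254, 266 and 213 counts and ethanol replicates 235, 223 and 266. These correspond to 3.89, 3.75 and 3.36 CPM and to 3.66, 3.47 and 3.82 CPM, and every ethanol library lay within the range of the controls. The spread within groups was close to that of counting: the chi-square divided by its degrees of freedom was 1.22 for control and 1.09 for ethanol. The log2 fold change of -0.0055 had a standard error of 0.12 and a 95% interval from -0.27 to 0.26 (adjusted p = 1.0, edgeR).

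Glra1 encodes the main adult alpha subunit of spinal cord and brainstem. The gene (NCBI 25674) occupies 40851955 to 40954364 on the minus strand of chromosome 10. It was measured at 11.3, 9.45 and 9.05 CPM in controls and at 10.8, 6.89 and 12.4 CPM after ethanol. The ethanol group held both the lowest library (replicate 2, 443 counts) and the highest (replicate 3, 866 counts) of the 6. Means were 9.94 ± 1.21 CPM and 10.04 ± 2.85 CPM (SD, n = 3 each), a log2 fold change of 0.015 (standard error 0.21, 95% interval -0.47 to 0.49, adjusted p = 1.0, edgeR). This interval was the widest of the 7 on the log2 scale and leaves changes between 0.724-fold and 1.41-fold undecided. The sign of the Glra1 difference was not stable: with library size alone in place of TMM it was -0.0077, and without ethanol replicate 3 it was -0.17.

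Slc6a9 encodes GlyT1. It lies on chromosome 5 from 136669674 to 136703702 on the plus strand (NCBI 116509), and 594 of its exonic bases face exons of Ccdc24 on the opposite strand, whose reads the strand-specific counting kept apart. The levels were 140, 107 and 116 CPM in controls and 115, 109 and 167 CPM after ethanol. Ethanol replicate 3 stood above the other 5 libraries, control replicate 1 came next, and the remaining 4 were close together. The group levels of 121 ± 17.4 CPM and 130 ± 32.1 CPM (SD, n = 3 each) gave a log2 fold change of 0.11 (standard error 0.17, 95% interval -0.29 to 0.51, adjusted p = 1.0, edgeR). Without ethanol replicate 3 it turned to -0.11. The summed oligodendrocyte markers were at 8906, 3874 and 6265 CPM in control and 4717, 6480 and 10320 CPM in ethanol replicates 1 to 3, so the 2 libraries richest in Slc6a9 were also the richest in these markers. The summed astrocyte markers were highest in ethanol replicate 3 too, at 8829 CPM against 6300 to 7766 CPM elsewhere. The thalamus and hypothalamus markers were highest in the same 2 libraries, at 376 CPM in ethanol replicate 3 and 152 CPM in control replicate 1, against 39.9 to 126 CPM in the other 4. So were the central amygdala and striatum markers, at 731.7 and 730.9 CPM, against 470.8 to 713.9 CPM in the other 4. The part of these cells and regions in the Slc6a9 values was not tested.

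Slc6a5 encodes GlyT2, the usual marker of glycinergic neurons, and lies on chromosome 1 from 105270418 to 105336369 on the plus strand (NCBI 171148, 18 exonic blocks). Control replicates 1, 2 and 3 held 46.4, 62.3 and 53.0 CPM. Ethanol replicates 1, 2 and 3 held 47.3, 47.7 and 40.4 CPM. Control replicates 2 and 3 lay above every ethanol library, whereas control replicate 1 lay below 2 of them. The group means were 53.9 ± 7.97 CPM for control and 45.1 ± 4.11 CPM for ethanol (SD, n = 3 each), a log2 fold change of -0.26 (standard error 0.12, 95% interval -0.53 to 0.01). This was the difference nearest to the threshold, with an unadjusted p of 0.0578 from the edgeR fit and an adjusted p of 1.0, and it did not pass. A 2-sided exact permutation test on log2 CPM gave p = 0.3, where 3 libraries against 3 cannot give less than 0.1. Without control replicate 2 the log2 fold change was -0.14, and without control replicate 1 it was -0.36 (edgeR adjusted p = 0.969). The unadjusted p of Slc6a5 was below 0.05 in 6 of the 15 settings tried, in which 2.41% to 5.60% of all genes were, while its adjusted p was never below 0.672.

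The 2 libraries highest in Slc6a5 were also the highest in choroid plexus markers (1157 CPM in control replicate 2 and 910.5 CPM in control replicate 3). They were the highest in motile cilia markers too (172 and 144 CPM, against 93.4 to 121 CPM in the other 4). Among the other 4 the choroid plexus order differed from that of Slc6a5. Ethanol replicates 1 and 2 held 16.6 and 18.1 CPM of these markers, with Slc6a5 at 47.3 and 47.7 CPM. Control replicate 1 and ethanol replicate 3 held 534 and 497 CPM, with Slc6a5 at 46.4 and 40.4 CPM. The part of choroid plexus and ciliated cells in the Slc6a5 values was not tested. Hindbrain and spinal cord markers were nearly absent. Of 18 such genes, most of them Hox genes, 18 were below 1 CPM in every library and 5 were listed at 0 in every library. Slc6a5 had at least 2810 counts in each library. The tissue source of the Slc6a5 reads was not tested. The 18 markers summed to 0.367 to 0.505 CPM in controls and to 0.405 to 1.35 CPM after ethanol.

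Gphn spans 101327874 to 101859169 on the plus strand of chromosome 6 (NCBI 64845) in 21 exonic blocks. It was the steadiest of the 7, with 94.5, 93.6 and 90.6 CPM in controls and 99.6, 98.9 and 88.5 CPM after ethanol. Ethanol replicates 1 and 2 lay above every control and ethanol replicate 3 below every control, so the ethanol group enclosed the control range. The levels of 92.9 ± 2.05 CPM and 95.6 ± 6.22 CPM (SD, n = 3 each) gave a log2 fold change of 0.04 (standard error 0.06, 95% interval -0.10 to 0.19, adjusted p = 1.0, edgeR). The interval for Gphn was the narrowest of the set and ran from 0.93-fold to 1.14-fold. The 3 libraries highest in Glrb (ethanol replicates 1 and 2 and control replicate 1) were the 3 highest in Gphn, in the same order.

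**Figure D2:**
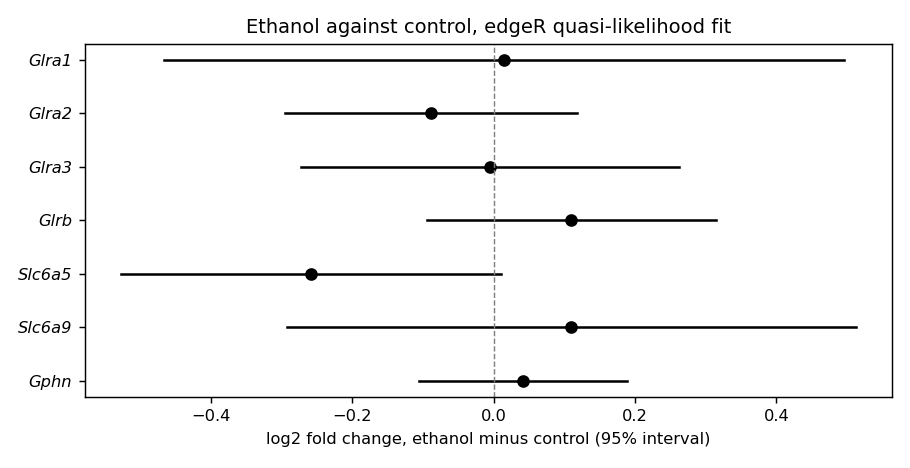
Log2 fold change of ethanol minus control (x axis) for each of the 7 genes, with points for the estimate of edgeR's quasi-likelihood fit and lines for its 95% interval. All 7 intervals include 0, from the narrowest for Gphn (-0.10 to 0.19) to the widest for Glra1 (-0.47 to 0.49).

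The genes differed in how much they varied between libraries of one group. Among 14241 genes with more than 1 CPM in each library, the median within-group SD was 0.11 on the log2 scale. Glra1 (0.34) varied more than 95.1% of these genes and Slc6a9 (0.28) more than 91.4%. Slc6a5 (0.18) varied more than 76.0%, Glra2 (0.12) more than 56.1% and Glrb (0.12) more than 53.7%. Glra3 (0.09) and Gphn (0.07) were among the steadier genes, above 37.9% and 23.6%. Counting error alone would give a coefficient of variation of 6.42% for Glra3 but 1.09% for Slc6a9, whose libraries varied by 14.4% for control and 24.6% for ethanol.

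To compare levels between genes, counts were divided by exonic length and scaled to an equal total per library (TPM). Over the 6 libraries the order was Glrb (123.9 ± 10.2 TPM, SD over 6), Slc6a9 (96.0 ± 17.0), Gphn (78.5 ± 4.06), Glra2 (27.4 ± 2.34), Slc6a5 (15.5 ± 2.56), Glra3 (7.30 ± 0.387) and Glra1 (4.02 ± 0.765 TPM). The ranges of Glrb and Slc6a9 overlapped, with Glrb higher in 5 of 6 libraries, and so did those of Slc6a9 and Gphn, although Slc6a9 was higher in 6 of 6. The other neighbors in the order had ranges that did not overlap. The gene model of Glra3 in the counting annotation ends in a block of 279 bases, while the last blocks of the other 6 genes measure 1000 to 4559 bases, so reads from a longer Glra3 end would not have been counted and its level per length may not compare directly. Before division by length, Glra1 had more counts than Glra3 (9.94 against 3.66 CPM in controls), so their order rests on the gene models. Glra4, the remaining alpha subunit gene, was at 0.433 TPM. Its gene model holds 15693 exonic bases, against 1305 for Glra3, so this level rests on the gene model too. Before division by length, Glra4 was at 2.41 CPM in controls.

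The alpha subunits were present in unequal amounts. Glra2 made up 71.3 ± 0.661% of the summed TPM of Glra1, Glra2 and Glra3 in controls and 70.1 ± 3.41% after ethanol (SD, n = 3 each). With the same reservation on its gene model, the shares of Glra3 were 18.5 ± 0.280% and 19.3 ± 1.14%, and for Glra1 10.1 ± 0.673% and 10.6 ± 2.80%. The ethanol group spread more widely, since the Glra1 share was 7.78% in replicate 2 and 13.4% in replicate 3. Glrb stood at 3.01, 2.80 and 3.27 times the summed alpha TPM in controls and at 3.42, 3.72 and 3.07 times after ethanol. The groups overlapped, and the log2 difference of 0.17 gave p = 0.2 in a 2-sided exact permutation test (0.8 after Benjamini-Hochberg adjustment over the 8 levels and ratios compared). Without ethanol replicate 2 that difference was 0.10. The ratio of Slc6a9 to Slc6a5 was 7.39, 4.19 and 5.34 in controls and 5.96, 5.58 and 10.2 after ethanol (log2 difference 0.34, exact permutation p = 0.4, adjusted 0.8). The log2 difference was 0.07 without ethanol replicate 3, 0.15 without control replicate 2 and 0.56 without control replicate 1. None of the 8 had an exact permutation p below 0.2.

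**Figure D3:**
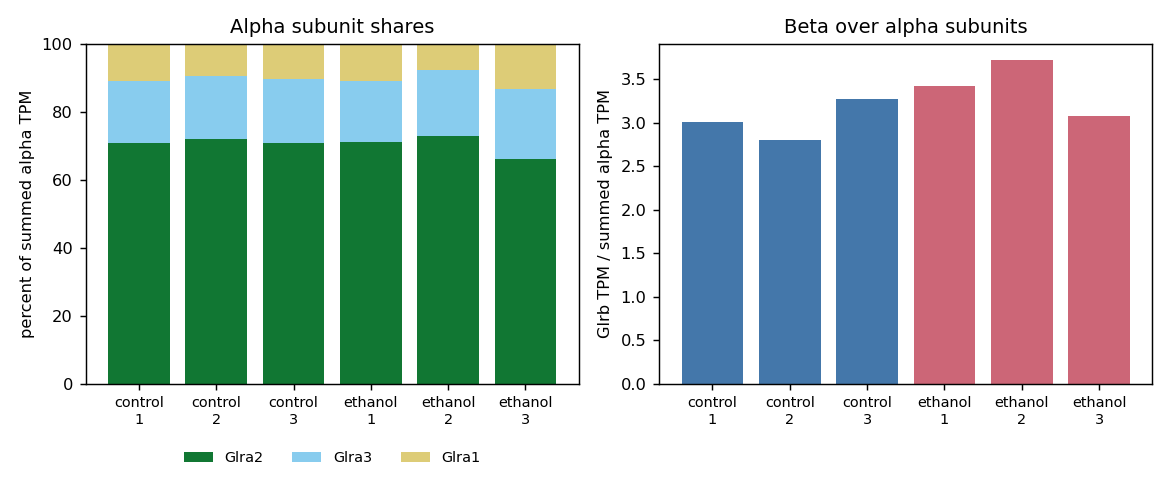
Left, the percentage of the summed TPM of the 3 alpha subunits (y axis, 0 to 100) taken by Glra2, Glra3 and Glra1 in each library. Right, Glrb TPM divided by the summed alpha TPM in the control (blue) and ethanol (red) libraries: Glra2 holds 66.3% to 72.8% in every library, and the ratio runs from 2.80 to 3.72 with overlapping groups.

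The library pattern of each gene was compared with that of 14234 other genes by Pearson correlation of log2 CPM over the 6 libraries. The 3 most similar genes were Zfp280d, Zfp287 and Cdyl2 for Glrb (r from 0.991 to 0.999) and Akap11, Lnpk and Utp15 for Gphn (r from 0.991 to 0.995). For Slc6a9 they were Syndig1l, Ldhd and Gatm (r from 0.996 to 0.997), and for Slc6a5 Stra6, Vwa3a and Myh2 (r from 0.989 to 0.993). Gabre, Peg10 and Elavl1 were nearest to Glra1, Zfat, Zfp418 and Hnrnpdl to Glra2, and Nhlrc3, Ica1l and Dip2b to Glra3 (r from 0.982 to 0.993). With the 2 libraries farthest from a gene's median left out, r stayed between 0.882 (Gatm with Slc6a9) and 0.999. These are descriptions of 6 points from the same libraries, and between 9 genes (Glra2) and 171 genes (Gphn) exceeded an r of 0.95.

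**Figure D4:**
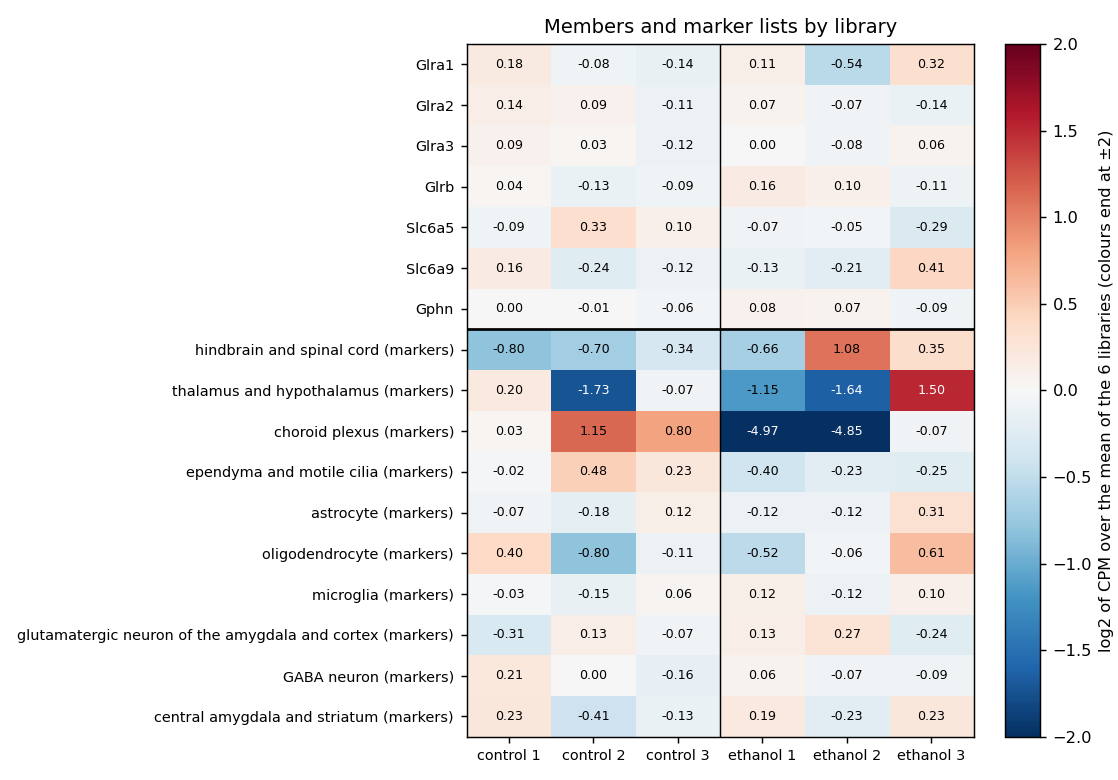
Log2 of the CPM in a library over the mean of the 6 libraries (color and printed value; colors end at ±2), for the 7 genes above the line and for the summed CPM of 10 marker lists below it. The 7 genes stay between -0.54 and 0.41, while the choroid plexus markers reach -4.97 in ethanol replicate 1.

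Genes that work with the glycine system were read from the same fit, in lists built from their known roles, again with earlier results known. Of 66 such genes in the files, 63 were tested, 0 had an adjusted p below 0.2 and 0 had an unadjusted p below 0.05 in either direction (edgeR), against 4.15% of all genes. Their median log2 fold change was 0.017. Groups that did not overlap were found for 3 of 63, or 4.76%, against 8.85% of all genes. Among them, named after their values were seen, were the neuronal glutamine carrier Slc38a1 (log2 fold change 0.07) and Stk39, a kinase of chloride cotransporters (-0.13).

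Among 24 tested partners of gephyrin and proteins of the inhibitory postsynapse, 16 were above 0 and 8 below. Of all genes tested, 47.4% were below 0. The log2 fold changes of these 24 ran from -0.09 to 0.16, with a median of 0.03. The most abundant per length were the dynein light chains Dynll1 (-0.01) and Dynll2 (0.08), which bind gephyrin, and the autophagy-related Gabarapl1 (0.04). Nlgn2, the neuroligin of inhibitory synapses, picked after its value was seen, was at 0.08. Of 5 molybdenum cofactor genes, 4 lay below 0, including Mocs2 (-0.0069), which acts just before gephyrin, and the cofactor-dependent sulfite oxidase Suox (-0.0099), while Mocs3 was at 0.03. None of these values passed the test.

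Of 12 tested genes of glycine and serine metabolism, 6 were above 0 and 6 below. Gatm, which consumes glycine in creatine synthesis, had a log2 fold change of 0.09, the serine synthesis enzyme Psat1 0.13, and Dld, the shared dehydrogenase of the glycine cleavage system, -0.0094. The highest value, singled out after it was seen, was that of Dao, which degrades D-serine, at 1.07 with a standard error of 0.74 and a control level of 0.194 CPM (unadjusted p = 0.187 from the edgeR fit). Of 9 other carriers of glycine tested, the vesicular transporter Slc32a1, which loads GABA and glycine, was at -0.0098, Slc38a2 at 0.09 and the glial Slc7a10 at -0.11. Of 6 genes of chloride transport, which sets the direction of glycine currents, the extruder Slc12a5 was at 0.13 and the exchanger Clcn3 at 0.02. The splicing regulators ranged from -0.02 to 0.17, with Ptbp2 at -0.02, Rbfox1 at 0.17 and Elavl4 at -0.0080. The unadjusted p was above 0.05 for each of them.

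**Figure D5:**
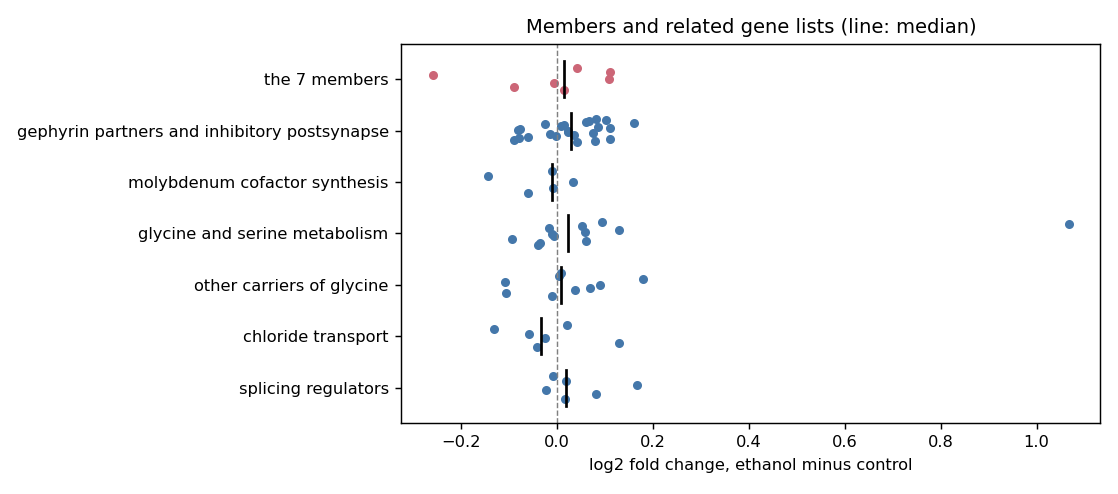
Log2 fold change of ethanol minus control (x axis) for the 7 genes (red) and for each tested gene of 6 related lists (blue), with a black line at each list's median. The medians lie between -0.03 and 0.03, and the single point near 1.07 is Dao, at 0.194 CPM in the control group.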

How the data were processed

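RNA-seq counts of 6 amygdala libraries, 3 per group, were used. Per the file headers, the authors' counts are reads that featureCounts 1.6.3 assigned to exons (RefSeq annotation of Rnor_6.0, reverse-stranded setting, summed by gene), with no normalization. The submitters' processing notes also name STAR 2.7.0f. Reads were 100 nt and single-end. The deposited exonic lengths were used for TPM. Symbols were matched for 29322 of 38445 identifiers through the RefSeq gene table of GRCr8, and gene positions are those of the files.

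The analysis used edgeR 4.0.16 in R 4.3.3, with limma 3.58.1 and DESeq2 1.42.0 for alternatives. filterByExpr (minimum 10 counts, 15 in total) kept 18141 genes. Libraries were scaled by TMM (factors 0.976 to 1.01), and groups were compared by the quasi-likelihood test with Benjamini-Hochberg adjustment and a threshold of 0.2. The standard error is the absolute log2 fold change over the square root of F. Log2 CPM carries a prior count of 2. Single values were compared by 2-sided exact permutation tests over 20 label assignments. The fit was tested on simulated data. Floors cover counting error only, as PCR copies were not told apart.

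The genes and lists were chosen with earlier results of these data known. The rule for named genes takes the 7 genes, the 3 most abundant genes per related list, any with an unadjusted p below 0.05, and the 3 genes most like each of the 7. Some genes of the related lists are not reported here by name. Alternatives were another scaling, test, filter or block and leaving out each library.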

Additional observations from a re-analysis of the deposited data

How the results depend on the processing

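The number of the 7 genes with an adjusted p below 0.2 was 0 under all 15 settings tried. Over all genes the number was 0 with edgeR's quasi-likelihood test, 81 with DESeq2 and 77 with edgeR's likelihood ratio test. Without 1 library it ran from 0 to 83, with 83 without ethanol replicate 3, 4 without ethanol replicate 1 and 0 otherwise. Slc6a5 had an unadjusted p below 0.05 in 6 of 15 settings (2.41% to 5.60% of all genes in these) and Glrb in 1 (without ethanol replicate 3, 8.87% of all genes), and the lowest adjusted p of any of the 7 was 0.529 (Glrb, same setting). The number of the 7 with groups that did not overlap was 1 with library size alone (Slc6a5; 9.33% of all genes) and ran from 0 to 2 without 1 library (Slc6a5 without control replicate 1, Glra2 without control replicate 3, Glrb and Gphn without ethanol replicate 3), where the share of all genes was 17.1%, 15.4% and 27.2% in these 3 settings.

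The sign of Glra1 turned with library size alone (-0.0077), limma-voom (-0.016) and the replicate block (-0.019), and without 1 library its log2 fold change ran from -0.17 to 0.22. That of Glra3 ran from -0.063 to 0.031 and that of Slc6a9 from -0.11 to 0.23. Glra2, Glrb, Slc6a5 and Gphn kept their sign in all 15 settings. Without 1 library the log2 difference ran from 0.10 to 0.24 for Glrb over the summed alpha subunits and from 0.07 to 0.56 for Slc6a9 over Slc6a5. The cause was not tested.

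Both groups carry the replicate numbers 1, 2 and 3, but libraries of one number hold different rats. Over 14241 genes, deviations from group means correlated by 0.0264, 0.388 and 0.21 for numbers 1, 2 and 3. Between libraries of different numbers they correlated by -0.427 to 0.305. Control replicates 2 and 3 correlated best with the ethanol library of their own number, but control replicate 1 with ethanol replicate 3 (0.305). The numbers were not taken as pairs, and what they stand for was not tested. With the replicate block, 0 of the 7 genes and 0 of all genes had an adjusted p below 0.2 (edgeR), and 1015 genes had an unadjusted p below 0.05, against 752 without it. Slc6a5 was among the 1015, at a log2 fold change of -0.25 (edgeR unadjusted p = 0.036, adjusted p = 0.844). With 3 libraries per group, the 95% intervals of the 7 genes reach down to 0.694-fold (Slc6a5) and up to 1.43-fold (Slc6a9).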
